A study of Rattus norvegicus with 20 samples.

Results

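The regions described here are CpG island regions that lay low in every normal rat mammary gland and high in only 1 to 4 of 16 mammary carcinomas. A region is a run of at least 3 array probes whose neighbours start at most 500 bases apart. Each region was given a position on its array, on the unlogged ratio of enriched to input signal: position 0 is the most common ratio of all regions, and position 1 the most common ratio among the highest 15% of them. A member is an autosomal region with a position under 0.2 in all 4 normal glands and over 0.5 in 1 to 4 carcinomas; a carcinoma over 0.5 is said to gain the region. The rule selected 1173 of 13650 regions, which is 10.7% of the 10957 autosomal regions that were low in all normal glands. Of the rest of those low regions, 9233 were gained in no carcinoma, 306 in 5 to 7 and 245 in 8 or more. Because the members were chosen on position, their positions and their difference between carcinoma and normal gland are given as a description, with no test.

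Each of the 20 arrays measured bulk tissue of 1 female rat sample from an F1 cross of the Sprague-Dawley and Copenhagen strains, either normal mammary gland (4 samples) or mammary carcinoma (16 samples). By the title of the series, the carcinomas were induced by radiation. Per the labels, rats received no treatment or 4 Gy of whole-body gamma radiation from a caesium source at 0.5 Gy per minute when 7 weeks old; the sources used here do not say which of these applies to the normal glands. DNA captured by a protein domain that binds methylated CpG was labelled with Cy5, and uncaptured input DNA with Cy3, so a high ratio marks DNA rich in methylated CpG. The codes in the descriptions of carcinomas 7 and 8 did not match those in their file names, so their identity is uncertain. Without both, 1190 regions met the rule among 14 carcinomas. The labelled tissue was not checked against marker genes, since regions are named here by their coordinates on build rn4 and no gene names were used. In bulk tissue, methylation of all copies of a region in some cells and of some copies in all cells cannot be told apart.

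CpG islands are short stretches rich in CpG dinucleotides, and many lie at gene promoters. Most of them stay unmethylated in normal tissue, and methylation of a promoter island goes along with silencing of its gene. In tumours, many islands gain methylation; some do so in most tumours of a type and others in a minority of them. Methyl-CpG-binding proteins bind methylated CpG, so capture with such a domain enriches fragments in proportion to both methylation and CpG content.

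The median raw signal ran from 62 to 128.5 units in Cy5 and from 73 to 136 in Cy3. Between 91.5% and 99.1% of probes had input signal well above background. The number of arrays, 4 of normal gland and 16 of carcinoma, limits precision. The distance between positions 0 and 1 was 5.12 ± 0.92 on the log2 scale in normal glands (SD, n = 4) and 3.14 ± 0.57 in carcinomas (SD, n = 16). A position of 0.2 therefore stood at a log2 ratio of 1.84 to 3.52 on normal arrays and 0.48 to 1.55 on carcinoma arrays. A position of 0.5 stood at 1.23 to 2.66 on carcinoma arrays, so a region can be gained without a higher log2 ratio. In 974 members (83.0%) every gaining carcinoma also exceeded all 4 normal glands in log2 ratio, and in 47 members no carcinoma exceeded the highest normal gland. Which regions are members depends on this scale: with position taken on the log2 ratio, 573 regions met the thresholds, and 192 of the 1173 members (16.4%) overlapped one of them. After loess normalization within each array 520 regions did, overlapping 247 members (21.1%). The share overlapped was 73.8% after normexp background correction and 98.5% with the authors' value table.

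Members gained in a single carcinoma were the most frequent. Of the members, 529 were gained in 1 carcinoma, 270 in 2, 210 in 3 and 164 in 4, which gave 2355 gains, counting each carcinoma of each member. A gain had a median position of 0.625, and 417 gains (17.7%) exceeded 0.8. In the median gain the log2 ratio exceeded the mean of the normal glands by 1.43, with quartiles of 0.94 and 1.91. The Cy5 signal was higher by 1.34 on the log2 scale and the Cy3 signal differed by -0.014, so the difference lay in the enriched channel. In the carcinomas that did not gain the region, the median difference in log2 ratio was 0.17.

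In most gains every probe of the region stood above the normal glands in position. This held against the same probe in all 4 normal glands in 2271 gains (96.4%). The rule chose regions on the mean of these probes, and position depends on the range of each array. In log2 ratio the mean of the region exceeded all 4 normal glands in 2039 gains (86.6%). All probes of the region were over 0.5 in 661 gains (28.1%), and fewer than 50% of them were in 122 gains (5.18%). Cy5 was well above background for 90.8% of member probes on normal arrays, 97.1% on arrays of gaining carcinomas and 92.1% on those of the other carcinomas. Every member had at least 1 probe with enriched signal above background on some normal array.

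Few carcinomas held most of the gains. Carcinoma 15 gained 695 members, carcinoma 8 gained 566, carcinoma 11 gained 369, carcinoma 6 gained 243 and carcinoma 16 gained 164. Together these 5 held 2037 of the 2355 gains (86.5%), and 1105 members (94.2%) were gained in at least 1 of them. The other 11 carcinomas gained between 1 and 78 members each. Carcinoma 2 gained 1 member, carcinomas 1 and 12 gained 10 each, carcinoma 3 gained 12 and carcinoma 9 gained 15. Over all 16 carcinomas the median was 44 members. Members gained only in carcinomas among the 5 made up 90.2% of those gained in 1, 76.3% of those gained in 2, 72.9% of those gained in 3 and 53.0% of those gained in 4.

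**Figure D1:**
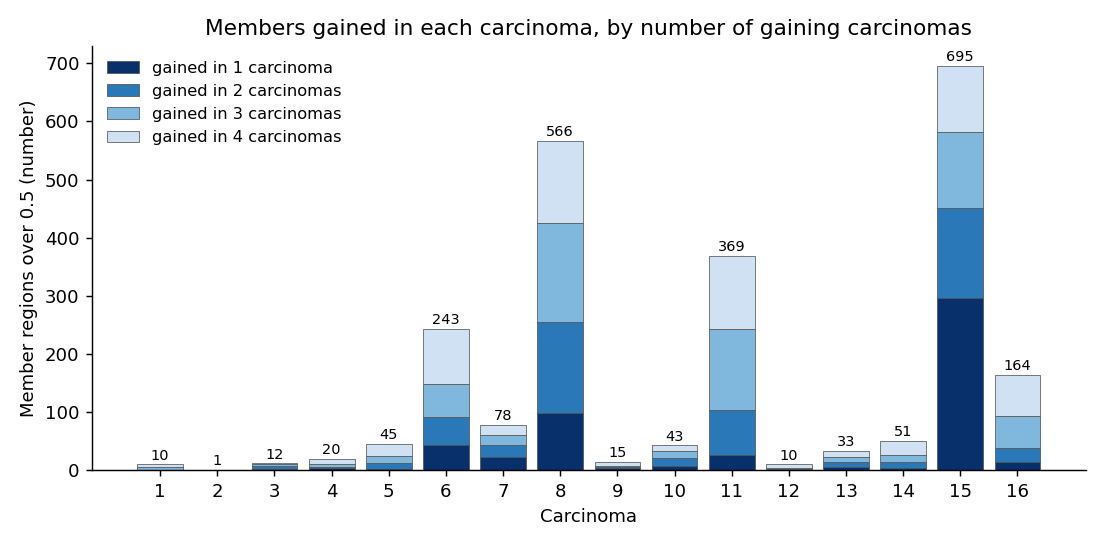
Number of members over 0.5 in each carcinoma (bars), stacked by whether the member was gained in 1, 2, 3 or 4 carcinomas; the total stands above each bar. Carcinoma 15 (695) and carcinoma 8 (566) are highest, and the 11 carcinomas outside the 5 highest lie between 1 and 78.

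The carcinoma with the most members was also the one with the most members of its own. Carcinoma 15 alone gained 296 of the 529 members seen in a single carcinoma (56.0%), carcinoma 8 gained 98 and carcinoma 6 gained 43. In 70 members every other carcinoma was under 0.2, so the gain stood apart from all 19 other arrays. Of these 70, carcinoma 15 held 61. Their median position was 0.638 there and 0.144 in the highest of the other carcinomas. Their median log2 ratio was 1.65 in carcinoma 15 and -0.14 as the mean of the normal glands. They lay on all 20 autosomes, with at most 9 on one. Without carcinoma 15, 982 regions met the rule among 15 carcinomas, and 877 of the original members overlapped one of them.

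In most members, at least 1 carcinoma that did not gain the region lay above 0.2. In members gained in 1 carcinoma, the highest of the other carcinomas had a median position of 0.389, a median of 5 others lay between 0.2 and 0.5, and a median of 10 lay under 0.2. In members gained in 4, the highest other carcinoma stood at 0.459 a median of 8 others lay between the thresholds, and a median of 4 lay under 0.2. The lowest gaining carcinoma led the highest other by more than 0.3 in 44.8% of members gained in 1, 8.89% of those gained in 2, 2.38% of those in 3 and 1.22% of those in 4. With a threshold of 0.4 in place of 0.5, 1163 regions met the rule, but 849 of the original members (72.4%) were among them.

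**Figure D2:**
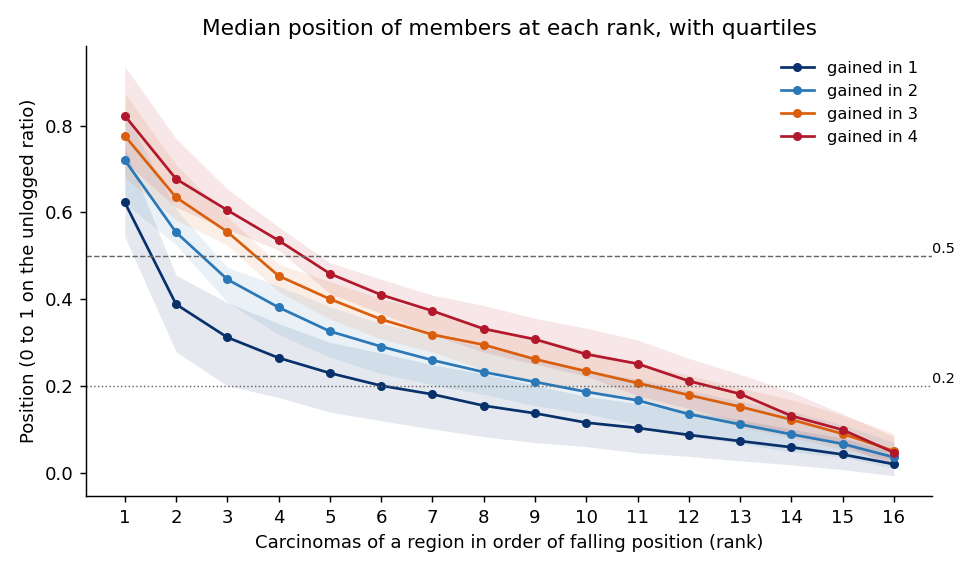
Median position (points and lines) and quartiles (shading) of members, with the 16 carcinomas of each region ordered from highest to lowest; colours mark members gained in 1, 2, 3 or 4 carcinomas and the horizontal lines the thresholds 0.5 and 0.2. After the gaining carcinomas the curves fall gradually: the first carcinoma under 0.5 stands at a median of 0.389, 0.446, 0.454 and 0.459 for members gained in 1, 2, 3 and 4.

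The members had low positions on every normal array. Their median position was 0.0230, 0.0528, 0.0282 and 0.0244 in normal glands 1 to 4, with normal gland 2 the highest. Normal gland 2 also had the narrowest log2 range between positions 0 and 1 of the normal glands (4.32). In carcinomas the median over members ran from 0.0453 in carcinoma 3 to 0.552 in carcinoma 15, with 0.227 as the median carcinoma. The normal position was higher in classes gained in more carcinomas: its median was 0.000514 in low regions that were never gained, 0.0227 in members gained in 1 carcinoma, 0.0404 in members gained in 4 and 0.0820 in regions gained in 8 or more. These are levels below the lower threshold, and the rule bounds them.

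The widest gaps between gaining and other carcinomas were found for regions of carcinoma 15. These are the members of at least 5 probes with the largest gap for each number of gaining carcinomas. A region of 8 probes on chromosome 9 from 74659170 to 74660040 had positions of 0.00136, 0.0168, 0.0113 and 0.0124 in normal glands 1 to 4. It stood at 1.18 in carcinoma 15 and between -0.0218 and 0.0934 in the other 15 carcinomas, with a median of 0.000353. All 8 probes were over 0.5 in carcinoma 15, whose log2 ratio was 2.38 against -0.12 ± 0.25 in normal glands (SD, n = 4). Carcinoma 15 was thus the only array far from 0. A region of 6 probes on chromosome 5 from 169710444 to 169711180 had the same form. It was between -0.00189 and 0.00588 in normal glands, 0.941 in carcinoma 15 and at most 0.00693 in the others. Another of this kind, 5 probes on chromosome 17 from 17253152 to 17253702, was between 0.00894 and 0.0542 in normal glands, 0.982 in carcinoma 15 and at most 0.0739 elsewhere.

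Members gained in 2 carcinomas with the widest gaps belonged to carcinoma 8 with carcinoma 15 or 11. On chromosome 1 from 242450624 to 242451344, positions were 0.0443, 0.0580, 0.0278 and 0.0313 in the normal glands, 0.873 in carcinoma 8 and 0.904 in carcinoma 15. The other 14 carcinomas lay between 0.0275 and 0.338, with a median of 0.137. On chromosome 9 from 37881031 to 37881830, carcinoma 8 stood at 0.752 and carcinoma 15 at 0.832, against at most 0.240 in the other carcinomas and 0.0102 in the normal glands. A region of 13 probes on chromosome 7 from 70768934 to 70770045 was gained in carcinomas 8 (0.622) and 11 (0.738). Carcinoma 15 was at 0.0534 there, inside the range of the other carcinomas, whose highest was 0.158.

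The widest gap in 3 carcinomas was in none of carcinomas 8, 11 and 15. A region of 6 probes on chromosome 14 from 62679175 to 62679680 had positions of 0.0186, 0.0919, 0.0338 and 0.0430 in the normal glands. It was gained in carcinomas 1 (0.544), 5 (0.546) and 6 (0.621). The other 13 carcinomas lay between 0.0224 and 0.192. In carcinoma 6, 4 of its 6 probes were over 0.5. A region of 9 probes on chromosome 15 from 88538311 to 88539292 was gained in carcinomas 8 (1.05), 11 (0.895) and 16 (0.791), with 0.451 as the highest other carcinoma and 0.0847 as the highest normal gland. The same 3 carcinomas gained 22 probes on chromosome 6 from 95472809 to 95475343, at 0.784, 0.645 and 0.560. Of those 22 probes, 21 were over 0.5 in carcinoma 8, and the other carcinomas reached at most 0.237.

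In members gained in 4 carcinomas the remaining carcinomas came closer. On chromosome 4 from 83866661 to 83867297, carcinomas 8, 11, 15 and 16 stood at 0.903, 0.823, 0.985 and 0.772, and carcinoma 13 at 0.499, just under the threshold. The 4 normal glands were at 0.0575, 0.112, 0.0653 and 0.0658, below the lowest carcinoma (0.152) in position. In log2 ratio the normal glands averaged 1.34 ± 0.38 (SD, n = 4). The carcinomas that did not gain the region averaged 1.45 with an SD of 0.55, so the 2 overlapped on that scale. On chromosome 13 from 52154747 to 52155492, carcinomas 8, 11, 12 and 15 stood at 0.719, 0.719, 0.596 and 0.565, with 0.299 as the highest of the others. Normal gland 4 was the lowest array there at -0.00817, and the other normal glands were between 0.0237 and 0.0280. On chromosome 11 from 31205703 to 31206959, carcinomas 8, 11, 15 and 16 stood at 0.861, 0.672, 0.882 and 0.665, and the others reached at most 0.411.

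The members with the most probes had gains between 0.509 and 0.735. The longest was a run of 46 probes on chromosome 14 from 83215953 to 83221176, gained in carcinomas 8 (0.614), 11 (0.509) and 15 (0.716). The other carcinomas lay between 0.0565 and 0.391 and the normal glands between 0.0142 and 0.0440, so that every carcinoma was above every normal gland in position. In carcinoma 15, 35 of the 46 probes were over 0.5. The next, with 29 probes on chromosome 3 from 53851881 to 53854704, was gained in carcinomas 8 (0.735) and 11 (0.655), with 0.454 as the highest other carcinoma. In 28 probes on chromosome 1 from 90232471 to 90235289, carcinomas 8 (0.540) and 15 (0.528) were over the threshold and carcinoma 11 (0.481) was not.

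**Figure D3:**
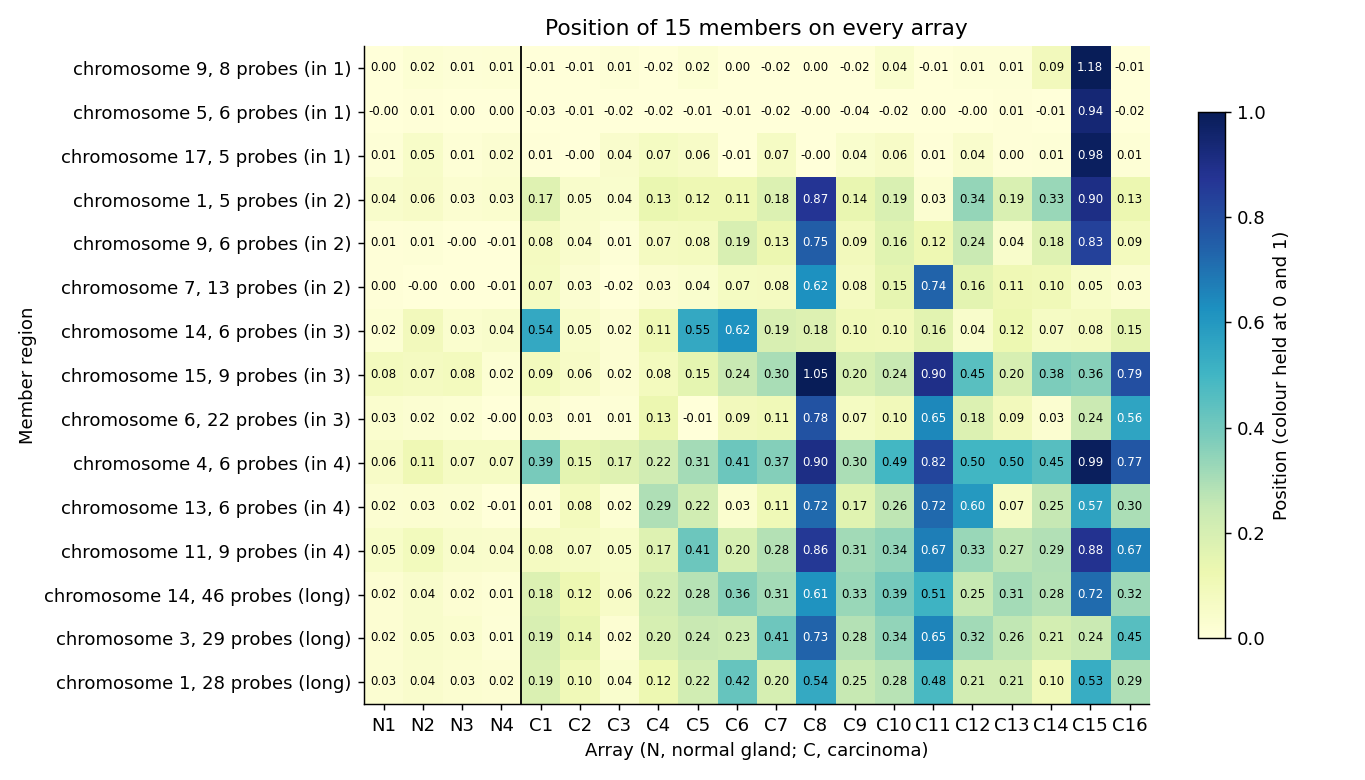
Position of 15 members (rows) on each of the 20 arrays (columns), printed in each cell and shown by colour: the 3 members with the widest gap for each number of gaining carcinomas (in 1 to in 4) and the 3 with the most probes (long). The first 3 rows are dark in carcinoma 15 alone (1.18, 0.941 and 0.982), while lower rows show intermediate positions in carcinomas that did not gain the region.

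Every carcinoma had at least 1 member of its own. The highest in carcinoma 15 was on chromosome 5 from 145520082 to 145520798, at 1.23 against at most 0.342 elsewhere. The highest in carcinoma 8 was on chromosome 10 from 77689919 to 77690485, at 0.999 against at most 0.361. In carcinoma 6 it was on chromosome 7 from 114031715 to 114032031, at 0.964, with carcinoma 5 close to the threshold at 0.499. Carcinoma 3 had its highest on chromosome 1 from 56497442 to 56497839, where 3 probes gave 0.951 against at most 0.350 in the other carcinomas. Carcinoma 7 had 7 probes on chromosome 16 from 19045980 to 19046668 at 0.768 against at most 0.194.

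The single member of carcinoma 2, on chromosome 4 from 79435590 to 79436012, stood at 0.580, with carcinoma 11 at 0.500 just under the threshold and 1 of its 3 probes over 0.5. Carcinoma 1 had 1 member of its own, on chromosome 7 from 123729817 to 123730157, at 0.504, against at most 0.322 in the others. The highest of carcinoma 9, on chromosome 19 from 52629888 to 52630525, stood at 0.559 while its log2 ratio of 1.40 was within 1 SD of the normal glands (1.13 ± 0.35, SD, n = 4). After loess normalization carcinoma 9 lay below the normal glands there, with a difference in position of -0.514. The highest members of their own in carcinomas 4, 5, 10, 11, 12, 13, 14 and 16 stood at 0.646, 0.732, 0.651, 0.684, 0.565, 0.634, 0.569 and 0.614 in turn. In carcinoma 10 that region rested on 4 probes, of which 2 had enriched signal above background.

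Members at the thresholds show what the rule divides. A member of 6 probes on chromosome 12 from 21695145 to 21695753 had 0.500 in carcinoma 15 as its highest position, and a region on chromosome 10 from 74093562 to 74094236 that is not a member had 0.500 in carcinoma 7, just below the threshold. At the lower threshold, a member on chromosome 3 from 28297158 to 28297448 had 0.101, 0.199, 0.158 and 0.183 in the normal glands and 0.649, 0.655 and 0.578 in carcinomas 8, 9 and 10. Its mean log2 ratio in the normal glands was 2.18. In carcinoma 9, which had the highest position, the log2 ratio was 1.57, and the highest log2 ratio of any carcinoma was 2.56. On chromosome 17 from 53135048 to 53135590, carcinoma 15 alone gained the region at 0.726, with a log2 ratio of 1.80 against 2.07 ± 0.38 in normal glands (SD, n = 4). Here a gain in position went with no higher log2 ratio. A region on chromosome 14 from 41322308 to 41323696, with 0.204 in normal gland 2 and 1.04 in carcinoma 15, was left out.

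Carcinomas shared members in unequal measure. Carcinomas 8 and 11 shared 281, which is 49.6% of the members of carcinoma 8 and 76.2% of those of carcinoma 11. Their Jaccard index, the shared members divided by those gained in either, was 0.430, the highest of 120 pairs. Carcinomas 8 and 15 shared 286 (50.5% and 41.2%), and carcinomas 11 and 15 shared 195 (52.8% and 28.1%). Carcinoma 6 shared 129 members with carcinoma 8, which is 53.1% of its own, and 30 of the 45 members of carcinoma 5 were also gained in carcinoma 6. Carcinomas with more members can share more, and every member has at most 4 gaining carcinomas.

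Carcinomas 3 and 7 shared 10 of the 12 members of carcinoma 3, or 12.8% of the 78 members of carcinoma 7. Over all autosomal regions their log2 ratios ranked 88 of 120 pairs in correlation (r = 0.904 across regions, which are not independent). All pairs with carcinoma 3 were low, from 0.804 with carcinoma 8 to 0.918 with carcinoma 2. Only carcinoma 2 was closer to carcinoma 3 than carcinoma 7 was. Of the 10, 5 were gained in these 2 carcinomas alone. On chromosome 13 from 48045892 to 48046362, carcinoma 3 stood at 0.765 and carcinoma 7 at 0.756, against a median of 0.190 and at most 0.334 in the other 14, and 0.140 in the highest normal gland. On chromosome 12 from 1577374 to 1577729 they stood at 0.748 and 0.802, against at most 0.413 in the other carcinomas. The largest value of the 10 was 1.16 in carcinoma 3 on chromosome 18 from 28953834 to 28954644, where carcinoma 7 had 0.661. These carcinomas were scanned on the same day and on different slides, and the identity of carcinoma 7 is uncertain.

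**Figure D4:**
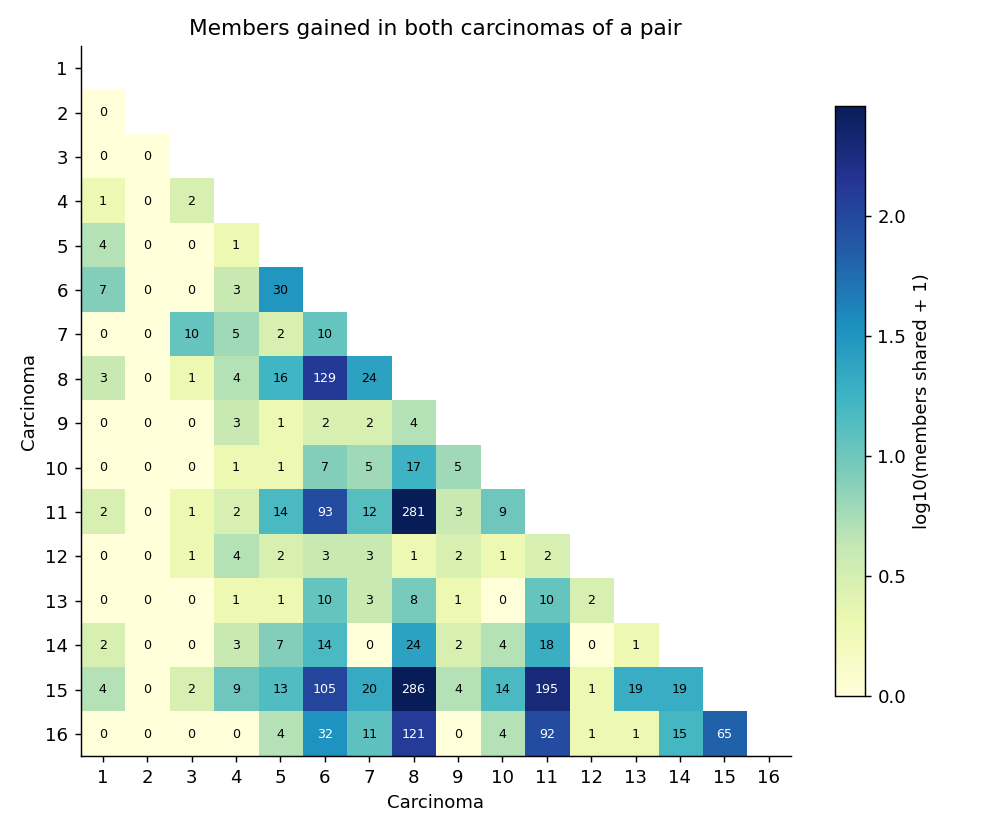
Number of members gained in both carcinomas of each pair (cells), with colour on a log10 scale. The pairs among carcinomas 8, 11 and 15 share 281, 286 and 195 members, and carcinomas 3 and 7 share 10 although carcinoma 3 gained only 12.

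Whether sharing followed the slide or the scan day was tested, since neither enters the rule. The mean Jaccard index was 0.0461 over the 8 pairs of carcinomas on one slide and 0.0364 over the other 112 pairs, a difference of 0.00967 (two-sided permutation test with 100000 resamples, p = 0.676; adjusted over 3 tests, 0.676). For pairs scanned on one day it was 0.0422 against 0.0341 (permutation p = 0.482). Carcinomas 11 and 15, with a Jaccard index of 0.224, were on one slide and scanned on one day. With each array left out the difference by slide ran from -0.0151, without carcinoma 15, to 0.0308, without carcinoma 8. Among the carcinomas of scan days 2 and 3, limma with Benjamini-Hochberg adjustment called 0 of 13650 regions between the days (0% called), and so 0 members. At an unadjusted p under 0.05 it gave 15 members (1.28%) and 109 regions in all (0.799%). The median members gained were 107.5 on scan day 2 (6 carcinomas) and 38 on scan day 3 (8 carcinomas), and both carcinomas of scan day 1 had at most 10. All gaining carcinomas were of scan day 2 in 392 members and of scan day 3 in 218. The 392 include 296 members gained in carcinoma 15 alone, and the 218 include 98 gained in carcinoma 8 alone. These counts therefore rest in part on single carcinomas and were not tested.

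The number of members per carcinoma was set against 4 measures of the array over 16 carcinomas. With the log2 range between positions 0 and 1 the Pearson r was -0.0035 (permutation p = 0.991) and the Spearman rho -0.218 (permutation p = 0.417). With the median raw Cy5 signal r was 0.130 (permutation p = 0.640) and rho 0.448 (permutation p = 0.0841), and with the median raw Cy3 signal r was -0.032 (permutation p = 0.908) and rho 0.178 (permutation p = 0.505). With the SD of the mean input signal over autosomes, a measure of uneven input along the genome, r was 0.418 (permutation p = 0.0911) and rho 0.399 (permutation p = 0.125). No relation passed after Benjamini-Hochberg adjustment over 4 (lowest adjusted permutation p = 0.251, for a rho). The last relation rested on which carcinomas were included. Leaving out carcinomas 3 and 8, the farthest from the median, gave r = 0.672; leaving out carcinoma 3 alone gave 0.760 (adjusted permutation p = 0.00784; over the alternatives 0.00784 to 0.721). Within scan day 2 this r was 0.668 (permutation p = 0.119, n = 6), and within scan day 3 it was 0.242 (permutation p = 0.601, n = 8). The log2 range gave r = -0.789 within scan day 2 (permutation p = 0.0525) and 0.499 within scan day 3 (permutation p = 0.207). With the raw Cy5 signal r was 0.520 on day 2 (permutation p = 0.265) and -0.444 on day 3 (permutation p = 0.248). With raw Cy3 it was -0.196 (permutation p = 0.772) and 0.168 (permutation p = 0.722). The lowest adjusted p within days was 0.420 over 8 relations.

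Members lay near other gained regions more often than never gained regions did. A region that was low in normal glands and gained in any number of carcinomas lay within 10 kb of 26.7% of members, against 2.68% of the low regions that were never gained, 34.0% of those gained in 5 to 7 and 44.5% of those gained in 8 or more. Within the members this share was 20.6% for those gained in 1 and 42.1% for those gained in 4. The median distance to the nearest run of probes was 19.1 kb for never gained regions, 12.8 kb for members and 3.20 kb for regions gained in 8 or more. The median size was 5 probes and 598 bases in members and 6 probes and 621 bases in never gained regions. Regions of 10 or more probes made up 14.5% of never gained regions, 13.2% of members gained in 1, 14.4% of those in 2, 24.3% of those in 3, 23.8% of those in 4 and 21.6% of regions gained in 8 or more. Regions over 0.5 in normal glands were within 10 kb of 2.13% of members and 3.23% of never gained regions. These shares describe regions chosen on the same arrays and have no test.

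Neighbouring members mostly had at least 1 gaining carcinoma in common. There were 133 pairs of members within 10 kb of each other. Of these, 119 (89.5%) had such a carcinoma in common, but only 23 had exactly the same set. Over all pairs of members 59.3% had one in common. Members gained in more carcinomas lay near gained regions more often, and they can also share a carcinoma more easily. The shares therefore do not compare like with like, and they were not tested.

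Some members lay in groups, found by joining members up to 100 kb apart, a distance chosen after the members had been seen. The group with the most members spanned chromosome 1 from 249715105 to 249806922, where 10 of 12 regions were members and the other 2 were gained in 5 or more carcinomas. Carcinoma 8 gained all 10 of these members, carcinoma 11 gained 7, carcinoma 16 gained 5 and carcinoma 15 gained 4. On chromosome 6 from 76906716 to 77109517, 7 of 9 regions were members, and carcinomas 8 and 11 each gained all 7. On chromosome 10 from 84905940 to 85073610, 8 of 16 regions were members and 7 carcinomas had a gain. On chromosome 1 from 212875919 to 212944674 the 4 members were all gained in carcinoma 15, with carcinoma 11 also gaining 1. Most members, 790 in all, had no other within this distance.

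Runs of 1 or 2 probes can never be members, so their positions gave a measure that the rule did not use. There were 149 such runs within 10 kb of 140 members. In 9 carcinomas at least 5 runs lay near gained members, and the other 7 carcinomas were left out. The mean position was 0.391 near members gained in that carcinoma and 0.312 near members it had not gained. The mean difference was 0.0787 ± 0.190 (SD, n = 9), positive in 7 of 9 carcinomas (two-sided exact sign-flip permutation test, p = 0.270, adjusted over 3 tests 0.404; the smallest possible p was 0.0039). The same runs averaged 0.0578 and 0.0738 in the normal glands.

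The carcinomas differed widely in this measure. Carcinoma 8 had 0.712 near gained and 0.275 near other members, and carcinoma 11 had 0.582 and 0.297. In carcinoma 15 the values were 0.474 and 0.421, and in carcinoma 14 they were 0.0934 over 8 runs and 0.296. The difference was 0.0510 within scan day 2 (5 carcinomas, 4 positive) and 0.113 within scan day 3 (4 carcinomas, 3 positive). It passed without carcinoma 7 (0.137, adjusted exact permutation p = 0.0425) and without carcinoma 8 (0.118, adjusted exact permutation p = 0.0352), with members chosen anew among 15 carcinomas. Over the alternatives the adjusted exact permutation p ran from 0.00439 to 0.732, so the call depends on the setting.

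Input signal around the members was nearly the same whether or not the carcinoma gained them. Log2 input was centred on each array median and taken relative to normal glands, in windows of 5 Mb without the probes of members. Its mean was -0.065 at gained members and -0.084 at the other members. The mean difference was 0.0188 ± 0.0318 (SD, n = 15; carcinoma 2 had too few members), and it was positive in 11 of 15 carcinomas (two-sided exact sign-flip permutation test, p = 0.0143, adjusted over 3 tests 0.0430). It was largest in carcinoma 3, at 0.11 over its 12 members, and it was -0.012 in carcinoma 8. Without carcinoma 3 it was 0.0124 (adjusted exact permutation p = 0.0769; over the alternatives 0.00439 to 0.765). The call was also lost without each of 12 other carcinomas. After loess normalization the difference passed with the opposite sign (-0.0575, adjusted exact permutation p = 0.00439). With position on the log2 scale it was also negative and did not pass (-0.00526, adjusted exact permutation p = 0.765). Within scan day 2 it was 0.0197 (6 carcinomas) and within scan day 3 it was 0.0195 (8 carcinomas).

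Members lay on every autosome. They made up between 7.27% (chromosome 11) and 16.2% (chromosome 17) of the regions that were low in all normal glands, with 14.0% on chromosome 18 as the next highest and 10.7% over all autosomes. On chromosome 17, members gained in carcinoma 15 made up 12.1% of the low regions, against 3.50% to 9.77% on the other 19 autosomes. Members that carcinoma 15 did not gain made up 4.12% on chromosome 17 and 4.36% over all autosomes. Of the 47 members of carcinoma 15 on this chromosome, 20 lay between 10000001 and 20000000, where 81 regions were low in normal glands. Input signal was centred on the median of each array, so it shows only how chromosomes compare within an array. On that scale carcinoma 15 stood above the normal glands on chromosome 17, by 0.23 in log2. It stood below them on each of the other 19 autosomes, from -0.38 to -0.051. The part of the input signal in the count was not tested.

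**Figure D5:**
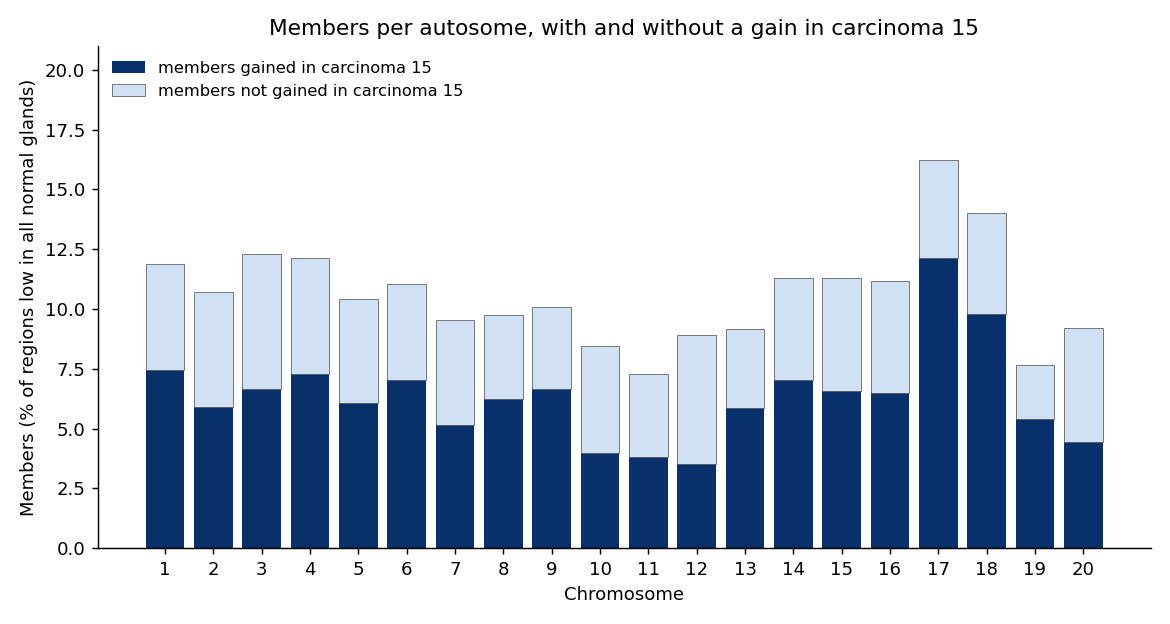
Members as a percentage of the regions low in all normal glands on each autosome, divided into members gained in carcinoma 15 (dark) and not gained in it (light). Chromosome 17 is highest at 16.2%, with 12.1% from members gained in carcinoma 15 and 4.12% from the others.

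In the fit over all regions, limma with Benjamini-Hochberg adjustment called 1531 of 13650 regions higher in carcinomas (11.2%) and 3220 lower (23.6%). Among the members, 224 (19.1%) were called higher and 24 (2.05%) lower. By number of gaining carcinomas, 95 of 529, 53 of 270, 46 of 210 and 30 of 164 were called higher. The rule used this contrast, so the counts are a description. The median difference in log2 ratio was 0.38 over members and 0.022 over all regions. Higher calls among members fell to 131 without normal gland 3, to 111 without normal gland 4, to 133 after normexp and to 79 with replicate number as a block. Over all regions, calls in both directions numbered 3931 without normal gland 3 and 4074 without normal gland 4. The calls over all regions were 1469 higher and 1058 lower after loess, and 463 higher and 2912 lower after normexp. With replicate number as a block they were 1063 higher and 2687 lower. Within scan day 2 they were 573 and 2268, and within scan day 3 they were 284 and 2401. Replicate numbers 5 to 16 occur in carcinomas only. The fit with replicate number as a block therefore compares carcinomas 1 to 4 with normal glands 1 to 4. Those carcinomas gained 10, 1, 12 and 20 members.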

How the data were processed

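DNA methylation was measured on 20 two-colour Agilent CpG island arrays, 4 of normal mammary gland and 16 of mammary carcinoma, grouped by their titles. The labels do not tie samples to animals, and p-values therefore reflect only the spread over these samples, which may be technical. Per the submitters' processing notes and the file headers, scanner images went through Agilent Feature Extraction 10.7.3.1, and probe coordinates are of build rn4. The processed signals deposited per array are intensities, background-subtracted and dye-normalized per the file headers. The log10 ratio of Cy5 over Cy3 deposited in the scanner files was not used here beyond a check, and the authors' value table of log2 ratios served as an alternative.

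From the 93024 non-control probes, log2 of processed Cy5 over Cy3 was taken, 187 values with an outlier mark of the scanner software were set to missing, and the median of each array was subtracted. A shift shared by all regions therefore cannot be seen. No loess was applied. Runs of at least 3 probes with starts up to 500 bases apart gave 13650 of 16465 runs, each with the mean of its probes. Position used density peaks of the log2 ratio, then unlogged. No filter on dim probes was applied in the main setting. With one, 1152 regions were members.

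Members, lists and tests were chosen with earlier results of these data known. Regions named are the 3 members of at least 5 probes with the widest gap for each number of gaining carcinomas, the highest member gained alone in each carcinoma, the 3 with most probes, and examples of those nearest the thresholds; the members shared by carcinomas 3 and 7 and the groups of members were named after their values were seen. Groups were compared over all regions with limma 3.58.1 in R 4.3.3, and the fit was tested on simulated data. Tests over carcinomas were two-sided exact sign-flip or permutation tests with 100000 resamples, in Python 3.11.15 with numpy 2.4.6, pandas 2.3.3 and scipy 1.17.1. Slide and scan day were read from the headers. None of the 10 slides held both groups. Normal gland and carcinoma share replicate numbers 1 to 4, but the correlation of their deviations was 0.329, -0.285, 0.109 and -0.041, so the numbers were not taken as pairs. Alternatives covered normalization, background correction, dim probes, region building, the position scale, thresholds, each array left out, replicate number, scan day and slide.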

Additional observations from a re-analysis of the deposited data

Results flagged for a closer look

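In 36 sets of values over the 4 normal glands (the positions of the named members and the array measures), 7 had 1 gland far from the other 3; chance marks about 1 in 20 such sets, and the sets share arrays. Normal gland 2 was the highest in the members on chromosome 4 from 83866661 (0.112 against at most 0.0658), on chromosome 19 from 25113924 (0.148 against at most 0.0610), on chromosome 4 from 11441675 (0.146 against at most 0.0540) and on chromosome 10 from 77689919 (0.0177 against at most 0.00804). Normal gland 4 was the lowest on chromosome 15 from 88538311 (0.0180 against at least 0.0750) and on chromosome 13 from 52154747 (-0.00817 against at least 0.0237). It was the highest on chromosome 16 from 19045980 (0.0150 against at most 0.00179). All of these positions lie under 0.2. Normal gland 2 had the narrowest log2 range between positions 0 and 1, 4.32 against 4.72 to 6.43 in the other normal glands. Position depends on that range, and its part here was not tested.

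Outside the autosomes, which the rule requires, 2 of the 9 X regions that were low in all normal glands were over 0.5 in 1 to 4 carcinomas, and so were 17 regions on unplaced sequence. Carcinomas 4, 10 and 11 gained 1 X region each; carcinoma 15 gained none of these.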

How the results depend on the processing

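The number of members stayed within 1.5 times the main count in 34 of 36 alternatives. The exceptions were loess (520) and position on the log2 scale (573). With each array left out it ran from 982 to 1250. The limma count over all regions, 4751, became 2527 after loess, 2841 within scan day 2 and 2685 within scan day 3, and ran from 3681 to 5462 with each array left out. With replicate number as a block it was 3750, and higher calls among members were 79. That fit rests on carcinomas 1 to 4 against normal glands 1 to 4, and the block was run for no other result. The fit between scan days called 0 regions in all 21 alternatives.

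The input difference at gained members passed in the main setting and lost its call in 21 of 37 alternatives: 0.0218 with 5 or more probes, 0.0130 and 0.0137 with probe gaps of 300 and 1000 bases, 0.0174 with the upper threshold at 0.4, 0.0133 with the lower at 0.1, 0.0105 in windows of 1 Mb, and, in settings chosen after seeing the data, 0.0173 with density peaks of the unlogged ratio and 0.0145 with gaining carcinomas above every normal gland in log2 ratio. It was reversed after loess, where it passed with a negative sign (-0.0575), and on the log2 scale, where it did not pass (-0.00526). With each array left out it ran from 0.0124 to 0.0195.

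The difference at short runs passed in 7 of 39 alternatives. It was 0.104 without dim probes, 0.164 with a gap of 300 bases and 0.164 with the upper threshold at 0.6. For neighbouring regions of at least 3 probes that were not low in all normal glands, in place of short runs, it was 0.0602. Without carcinomas 7 and 8, chosen after seeing the data, it was 0.132. It also passed without carcinoma 7 and without carcinoma 8, in a range of 0.0717 to 0.137 with each array left out. The correlation with uneven input ran from 0.306 to 0.760 with each array left out. Sharing by slide passed in none of 37 alternatives. The causes were not tested. Of 1085 values of named members under the alternatives, 1007 moved by less than 1 SD of the other carcinomas or not at all. Another 77 moved further and 1 was reversed, the member alone in carcinoma 9 after loess (-0.514). Many alternatives, such as other thresholds or leaving out a carcinoma that did not gain the region, cannot change these values. The 1007 are therefore no measure of stability. After loess and after normexp, most of the named members moved further than 1 SD. Dim enriched signal limits positions near 0, and the 4 normal glands limit every comparison with them.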
